A study of Mus musculus with 8 samples.

Results

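The loci of 8 genes that encode subunits of the transcription factor AP-1 were examined in Hi-ChIP loop lists from mouse pancreatic cancer cells. The genes were Fos, Fosb, Fosl1 and Fosl2 of the Fos family, Jun, Junb and Jund of the Jun family, and Atf3. A loop was assigned to a gene when 1 of its anchors lay within 2 kb of an annotated transcription start of that gene. By this rule 342 of the 249200 distinct loops had an anchor at an AP-1 gene, and the 8 genes were among 15439 annotated genes with such an anchor. No loop value was used to choose them, but earlier results of these data were known when they were chosen.

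AP-1 is a dimer of basic leucine zipper proteins that binds short palindromic DNA elements. Fos proteins typically act with a Jun protein rather than with each other. Jun proteins also pair with themselves, and ATF3 joins Jun proteins or forms its own dimers. Several of the genes respond within minutes to growth factor and stress signals carried by MAP kinases, and AP-1 sites are common in active enhancers of epithelial cells.

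Hi-ChIP joins chromatin conformation capture with immunoprecipitation, so that contacts between distant fragments are read where a chosen protein is bound. The 8 samples formed 4 groups of 2 replicates, FOXA1 tumor, FOXA1 liver mets, HNF4G tumor and HNF4G liver mets, of untreated cells with the genotype given as WT. The cells were cultured lines derived from the KPC mouse, 1 from a primary pancreatic tumor and 1 from a matched liver metastasis (liver mets), so each condition rests on 1 line. FOXA1 is a forkhead pioneer factor and HNF4G a nuclear receptor, and the study compared the looping associated with each factor between the tumor and the liver mets context. Each group had 1 list of loops that covered both replicates, so no spread between replicates could be calculated and no difference between groups was tested.

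The lists held 104136 loops (FOXA1 tumor), 125623 (FOXA1 liver mets), 76323 (HNF4G tumor) and 78098 (HNF4G liver mets), and the read depth behind them is unknown. Counts were therefore compared as shares of their list. Intervals are 95% intervals that cover counting error only and treat loops as independent, although loops of a gene share an anchor. All 7 epithelial and ductal marker genes had an anchor at a start. In the 4 lists in the order given above, the keratin gene Krt18 had 43, 57, 36 and 35 loops. In the same set Foxa1 had 8, 11, 6 and 5 loops, and Hnf4g had 2, 0, 1 and 0. Of 3 hepatocyte, 4 fibroblast and 3 leukocyte marker genes, 1, 2 and 1 had an anchor. These were Apoa1 (4, 6, 1 and 5 loops), Col1a1 (12, 9, 6 and 6), Pdgfra (2, 8, 14 and 5) and Cd68 (9, 8, 7 and 7). Some of these counts reached those of Foxa1. Alb, Cyp2e1, Col1a2, Pdgfrb, Ptprc and Cd3e had no anchor. These are loops at starts and not RNA levels.

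The genes were joined to 9 anchors, 1 for each gene and 2 for Atf3, and 8 of the 9 covered a start of their gene. Coordinates are mm10, counted from 1. The Fosl2 anchor also held a start of Gm10463, the Jun anchor a start of the antisense gene Junos, and the Jund anchor starts of Gm11175 and Iqcn, so loops there cannot be assigned to the AP-1 gene alone. The other 6 anchors held starts of no other gene. Atf3 had a main anchor at its 2 inner starts and a second one within 2 kb of its outermost start. The downstream start of Fosl2 at position 32146521 of chromosome 5 had no anchor.

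The RefSeq promoter sequences of the genes (GRCm38.p6, 250 bases before to 50 after the RefSeq start) were searched for short binding motifs on both strands. An entry was found for 7 of the 8 genes, with Fosl1 missing. The Jund entry (chr8:70697489-70697788) lay upstream of the Jund start used for the loops (70698949) and did not contain it. The Fosl2 entry (chr5:32136222-32136521) also contained no start used for the loops. For these genes the search therefore covered other DNA than the starts used above. The AP-1 motif TGANTCA occurred in 0 of 7 promoters, against 7.81% of 32851 mouse promoters of the same length. The cyclic AMP response element TGACGTCA, bound by Jun and ATF dimers, occurred in 0 of 7 (1.79% of all promoters) and the HNF4 motif CAAAGTCCA in 0 of 7 (0.475%). The forkhead motif TGTTTAC occurred in 1 of 7 (3.65%), the Junb promoter, 135 bases before the start. Of 2 further motifs, chosen after the promoters had been seen, TGACATCA occurred in the Jun promoter (3.62% of all promoters) and TGACGT, which is contained in TGACGTCA, in the Fos and Atf3 promoters (7.51%). The 4 promoters that held a motif are shown 5′ to 3′ on the strand of the gene, with the motif in capitals (for Atf3 it reads as its reverse complement, ACGTCA). A match is a run of letters and not a measured binding site.
Fos promoter (chr12:85473640-85473939, plus strand): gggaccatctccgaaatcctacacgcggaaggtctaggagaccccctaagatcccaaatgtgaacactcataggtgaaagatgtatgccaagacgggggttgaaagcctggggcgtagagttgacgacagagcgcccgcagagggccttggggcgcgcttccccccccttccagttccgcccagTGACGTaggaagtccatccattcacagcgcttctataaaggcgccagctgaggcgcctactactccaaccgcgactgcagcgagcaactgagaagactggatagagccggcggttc
Jun promoter (chr4:95052173-95052472, minus strand): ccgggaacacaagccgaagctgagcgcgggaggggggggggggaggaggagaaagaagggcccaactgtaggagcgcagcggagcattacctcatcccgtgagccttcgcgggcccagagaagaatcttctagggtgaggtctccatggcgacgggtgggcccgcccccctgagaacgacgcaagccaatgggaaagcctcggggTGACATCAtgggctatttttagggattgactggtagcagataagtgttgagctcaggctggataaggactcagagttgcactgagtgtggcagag
Junb promoter (chr8:84978699-84978998, minus strand): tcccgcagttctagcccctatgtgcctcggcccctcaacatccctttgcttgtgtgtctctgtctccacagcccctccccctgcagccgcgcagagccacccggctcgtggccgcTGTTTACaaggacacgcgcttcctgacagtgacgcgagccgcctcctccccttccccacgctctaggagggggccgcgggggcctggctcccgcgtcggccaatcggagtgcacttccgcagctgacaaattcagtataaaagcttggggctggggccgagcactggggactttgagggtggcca
Atf3 promoter (chr1:191183284-191183583, minus strand): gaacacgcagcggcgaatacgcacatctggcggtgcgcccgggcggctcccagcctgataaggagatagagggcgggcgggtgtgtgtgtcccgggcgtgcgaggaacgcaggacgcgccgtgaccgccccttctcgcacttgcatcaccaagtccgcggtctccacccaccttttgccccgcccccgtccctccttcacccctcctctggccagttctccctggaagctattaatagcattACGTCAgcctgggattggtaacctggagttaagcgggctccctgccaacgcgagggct

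Across the 8 genes, the FOXA1 tumor list held 151 loops, the FOXA1 liver mets list 187, the HNF4G tumor list 142 and the HNF4G liver mets list 130. These were 0.145%, 0.149%, 0.186% and 0.166% of their lists. AP-1 loops thus took a larger share of both HNF4G lists than of the FOXA1 list from the same line. The ratio of list shares was 0.779 (0.616 to 0.987) for FOXA1 over HNF4G in tumor and 0.894 (0.711 to 1.13) in liver mets. For all loops with an anchor at a start it was 0.949 and 0.967, inside both intervals. Loops with a promoter anchor of 5 kb or more likewise took 16.6% of FOXA1 tumor against 18.8% of HNF4G tumor. In liver mets they took 16.9% against 17.2%. With Fos, Fosb, Junb or Jund left out, the tumor ratio was 0.817, 0.788, 0.787 or 0.811 and its interval included 1. For liver mets over tumor the ratio was 1.03 (0.824 to 1.28) with FOXA1 and 0.895 (0.6998 to 1.14) with HNF4G, so both intervals included 1. As plain counts the FOXA1 lists held more AP-1 loops than the HNF4G lists, by 1.06 times in tumor and 1.44 times in liver mets, the FOXA1 lists being the longer ones.

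Loop number differed widely between the genes. Fosl1 had the most distinct loops at 84, Atf3 had 61, and Fosb, Junb and Jund had 42, 44 and 45. Fosl2 had 33, Fos had 21 and Jun had the fewest at 12. A promoter anchor had a median of 15 distinct loops (quartiles 9 and 24). Anchor width went along with these counts, since the anchors of Fosb, Fosl1, Fosl2, Junb, Jund and the main anchor of Atf3 were 5.94 to 11.9 kb wide against a median of 2.48 kb, and promoter anchors of 5 kb or more had a median of 32 loops (quartiles 21 and 47). The anchors of Fos and Jun were 3.42 and 2.66 kb wide. The part of width in the counts was not tested.

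**Figure D1:**
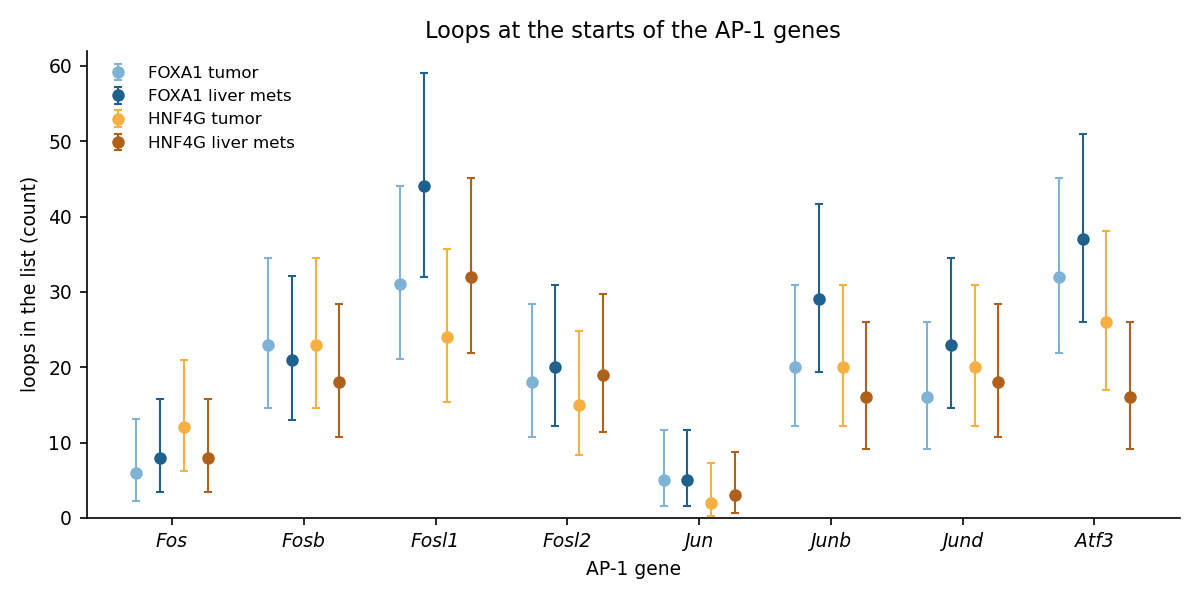
Number of loops (y axis, count) at the starts of each AP-1 gene (x axis) in the 4 lists (colors), with exact Poisson 95% intervals for counting error. Fosl1 reached 44 loops in the FOXA1 liver mets list, and Jun had 2 to 5 loops in every list. The intervals of the 4 lists overlapped within each gene except Atf3, where those of FOXA1 liver mets and HNF4G liver mets did not meet. Counts are not scaled to list length. As a ratio of list shares this Atf3 pair gave 1.44 (0.780 to 2.77), which includes 1.

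A gene was called past the fold when its ratio of list shares was at least 1.5 in either direction and the pair of lists held 10 loops or more at its starts. For FOXA1 liver mets over FOXA1 tumor, 0 of the 8 genes were higher, where 11.9% of all 9852 genes tested were, and 0 were lower, where 14.6% were. For HNF4G liver mets over HNF4G tumor, 0 of 7 genes were higher (12.9% of all 7541 genes tested) and 2 were lower, Fos at 0.652 and Atf3 at 0.601 (19% of all genes). For FOXA1 over HNF4G in tumor, 0 of 7 were higher (14.2% of 8499 genes) and 2 were lower, Fos at 0.366 and Jund at 0.586 (20.9%). In liver mets, 0 of 7 were higher for FOXA1 over HNF4G (14.2% of 9055 genes) and 2 were lower, Fos at 0.622 and Fosl2 at 0.654 (18.5%). Counts of 0 to 2 among 7 or 8 genes are too few to set apart from these shares. Jun had under 10 loops in 3 of the 4 pairs. The interval of each single gene's ratio included 1.

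**Figure D2:**
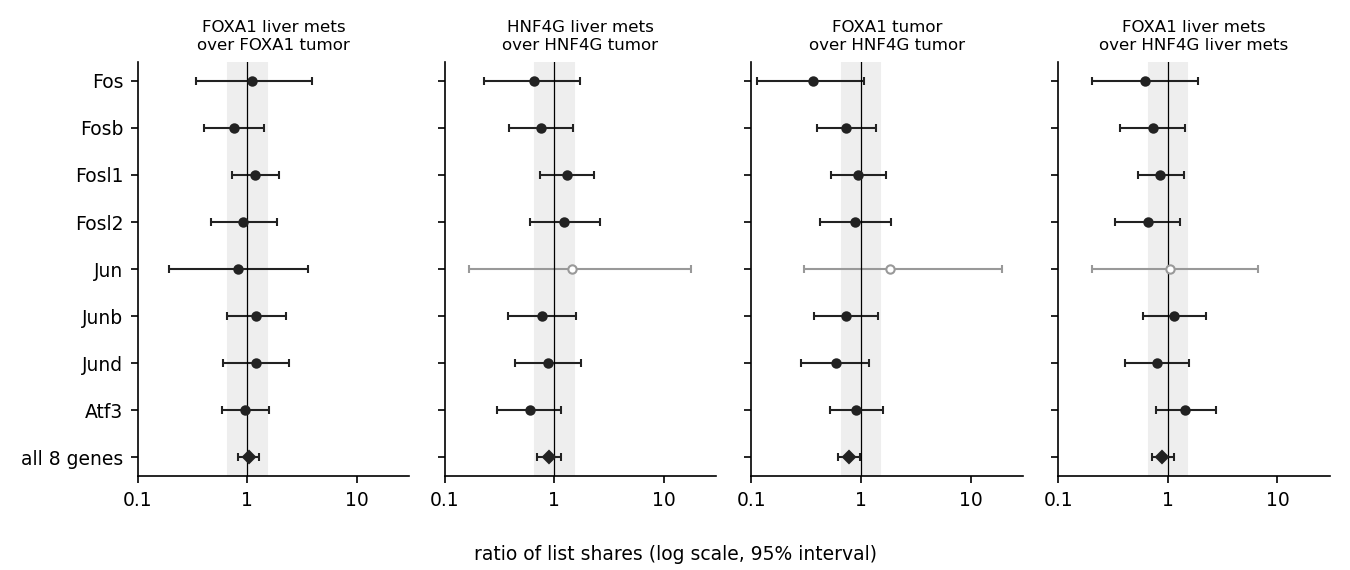
Ratio of list shares (x axis, log scale) for each AP-1 gene and for all 8 genes together (y axis) in the 4 comparisons (panels), with exact 95% intervals. The grey band marks ratios within 1.5 fold and open grey points mark pairs with under 10 loops. The interval of each gene crosses 1. The interval of all 8 genes leaves out 1 only for FOXA1 tumor over HNF4G tumor, where it includes the 0.949 of all promoter loops.

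The same loops recurred across lists to different degrees. Of the 342 distinct loops, 36 (10.5%, 7.70 to 14.2) were in all 4 lists, 43 in 3, 74 in 2 and 189 (55.3%, 49.96 to 60.4) in 1 list only. Over all loops with an anchor at a start, 5.54% were in all 4 lists and 65.7% in 1 list. Over loops with a promoter anchor of 5 kb or more, a comparison added after the widths of the AP-1 anchors were seen, the shares were 11.7% and 55.1%, within the intervals of the AP-1 loops. Loops of 1 list only were most frequent in the FOXA1 liver mets list, the longest one, at 72 (21.1% of the 342 loops, against 23.7% of all promoter loops).

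Recurrence was lower at longer distance. Among loops under 20 kb, 14 of 22 were in all 4 lists. From 20 to 100 kb the number was 14 of 71 (19.7%, 12.1 to 30.4), from 100 to 500 kb it was 6 of 149 (4.03%), from 500 to 1000 kb 2 of 62 and beyond 1000 kb 0 of 38. The share in all 4 lists also fell with distance over all promoter loops and over loops with a promoter anchor of 5 kb or more. For these 2 sets it was 33.3% and 68.9% under 20 kb, and 2.14% and 6.23% from 100 to 500 kb. From 20 to 100 kb it was 11.6% and 32.0%, below and above the interval of the AP-1 loops. The median span of the AP-1 loops was 255 kb (quartiles 94.4 and 600 kb), against 235 kb for all promoter loops and 306 kb for loops with a promoter anchor of 5 kb or more. Within lists the median was 142 kb for FOXA1 tumor, 187 kb for FOXA1 liver mets, 122 kb for HNF4G tumor and 117 kb for HNF4G liver mets, and over all promoter loops it was likewise longest in FOXA1 liver mets (149.6, 174, 142 and 123 kb).

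**Figure D3:**
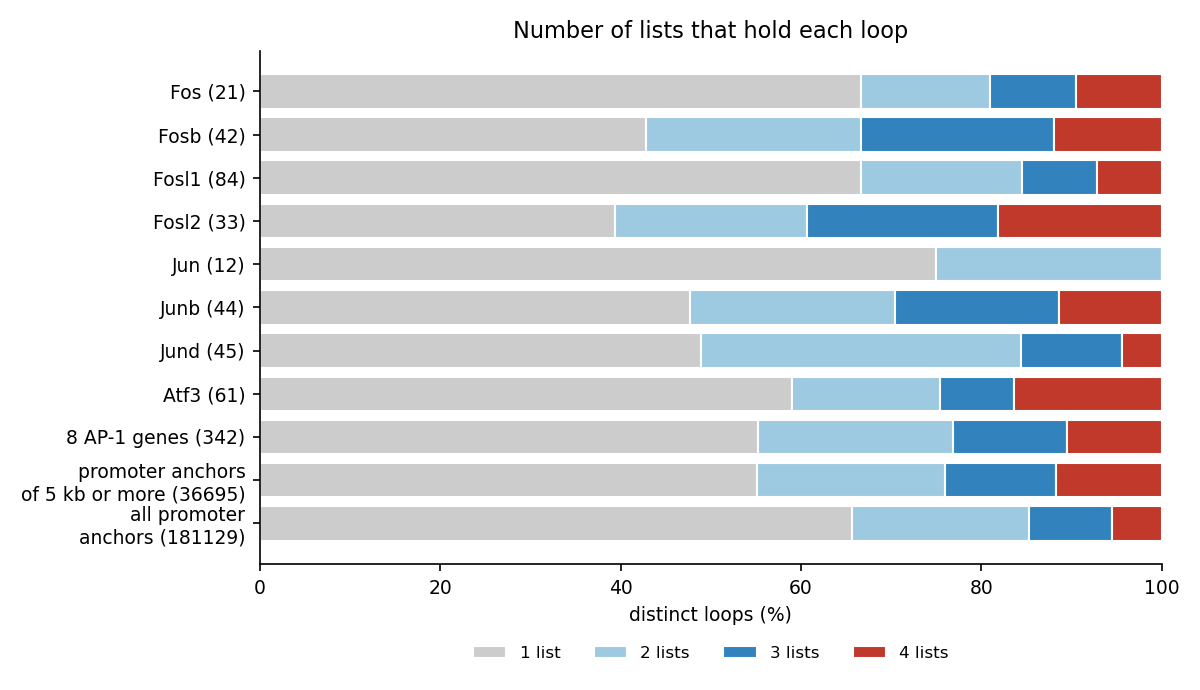
Share of distinct loops (x axis, %) found in 1, 2, 3 or 4 lists (colors) for each AP-1 gene, all 8 genes, promoter anchors of 5 kb or more and all promoter anchors (y axis, number of distinct loops in parentheses). Fosl2 had the largest share in 3 or 4 lists, Jun had no loop in more than 2, and the bar of the 8 genes resembles that of wide promoter anchors.

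The partner, the anchor at the far end of a loop, lay at an annotated transcription start for 213 of 329 partners (64.7%, 59.4 to 69.7), against 55.8% of the far ends of all promoter loops. An anchor joined to both Atf3 anchors was counted once, and 1 of the 213 was the outer Atf3 anchor itself. A further 33 partners overlapped an exon, 40 an intron and 43 (13.1%) no annotated gene, against 19.5% without a gene over all promoter loops. The share at starts ran from 30.3% (17.4 to 47.3) for Fosl2, 33.3% for Jun, 42.9% for Fos and 43.8% for Atf3 to 71.4% for Fosb, 77.8% for Jund, 79.5% for Junb and 82.1% (72.6 to 88.9) for Fosl1. Fosl2, Jun, Fos and Atf3 lay below the 55.8% of all promoter loops, and Fosl1 alone gave 69 of the 213 partners at starts. No loop joined 2 different AP-1 genes, and 1 loop joined the 2 anchors of Atf3.

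Each loop also had a deposited value, read here as the −log10 of an adjusted p. Many loops of a list shared an identical value, so values below 2 rank loops only coarsely and are not equal evidence in different lists. A value of 2 or more was given to 20 AP-1 loops in the FOXA1 tumor list (13.2%), 32 in FOXA1 liver mets (17.1%), 25 in HNF4G tumor (17.6%) and 17 in HNF4G liver mets (13.1%). The matching shares were 8.28%, 9.57%, 8.02% and 7.80% over all promoter loops, and 16.7%, 19.6%, 15.5% and 15.5% over loops with a promoter anchor of 5 kb or more. By gene, the share of partners with such a value in any list was 33.3% for Fosl2, 31.0% for Fosb, 25% for Junb, 23.0% for Atf3, 14.3% for Fosl1, 13.3% for Jund, 8.33% for Jun and 0 of 21 for Fos.

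**Figure D4:**
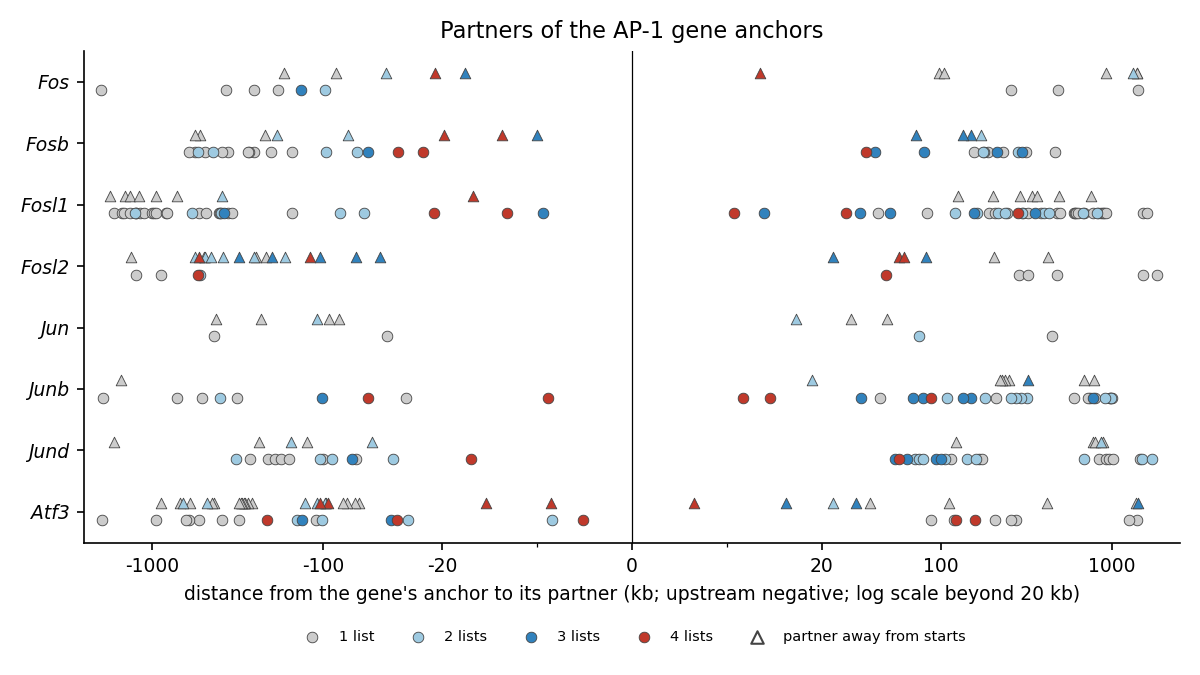
Distance from the anchor of each AP-1 gene (y axis) to its partners (x axis, kb, upstream negative, log scale beyond 20 kb), colored by the number of lists that hold the loop; circles are partners at a start and triangles partners away from starts. Partners found in all 4 lists lie mostly within 100 kb of the gene, and 2 partners of Fosl2 in all 4 lists lie beyond 500 kb upstream.

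Fos (chr12:85473890-85477273, plus strand) encodes the founding member of the family, a short-lived protein induced by serum and growth factors. Its anchor had 6 loops in the FOXA1 tumor list, 8 in FOXA1 liver mets, 12 in HNF4G tumor and 8 in HNF4G liver mets. Fos was the only member with its highest count in the HNF4G tumor list alone, and 8 of its 21 loops were found there only, 4 of them to partners without a gene. Of the anchors within reach, 23.1% were joined to Fos in any list.

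Only 2 loops of Fos were in all 4 lists, and both joined unannotated DNA, 22.1 kb upstream (chr12:85448745-85453546) and 13.5 kb downstream. The upstream loop had values of 0.122, 1.40, 0.407 and 0.838 in the FOXA1 tumor, FOXA1 liver mets, HNF4G tumor and HNF4G liver mets lists, the order of lists used for all series of 4 counts or values. None of these reached 2. A loop to the start of Nek9, a mitotic kinase gene 134 kb upstream, was missing from the HNF4G tumor list only. The longest Fos loop reached Dpf3, which encodes a chromatin remodelling subunit, 1986 kb upstream in the HNF4G liver mets list. The HNF4G tumor list also held Fos loops to 2 neighbouring partners 1406 and 1423 kb downstream that no other list held (both 1.99). HNF4G liver mets held one to a nearby partner at 1399 kb (1.99). A loop to a partner 1330 kb downstream was in FOXA1 tumor (1.91) and HNF4G liver mets (1.99), so this far region was not particular to HNF4G.

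Fosb (chr7:19302696-19310051, minus strand) encodes a relative of FOS with an inducible splice form that persists in stimulated neurons. It had 23, 21, 23 and 18 loops, an even spread, and 5 of its 42 loops were in all 4 lists. Its longest loop spanned 604 kb, the shortest maximum of the Fos family genes, and 57.5% of the anchors within reach were joined to it. The partner 36.2 kb upstream lay at the starts of Ercc1, a subunit of a DNA repair nuclease, and D830036C21Rik. This loop had values of 4.59, 4.25, 8.54 and 8.27, the highest minimum of any AP-1 loop of 20 kb or more in all 4 lists, and both HNF4G values were above both FOXA1 values. Loops to Gm44698 (2.91, 2.74, 1.51 and 2.53) and to Vasp, an actin regulator gene 36.4 kb downstream (0.804, 0.287, 0.520 and 0.414), were also in all 4 lists.

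Among loops of 1 list only, Fosb was joined to Ppp1r37 in HNF4G tumor (value 3.40, 255 kb) and to the apolipoprotein gene Apoe in FOXA1 liver mets (3.37, 391 kb). A partner chosen after the values were seen lay 283 kb downstream at the starts of Foxa3, a paralog of Foxa1, and Sympk. That loop was in both tumor lists, at 1.78 with FOXA1 and 5.62 with HNF4G, and in neither liver mets list. A loop to an anchor at 299 kb that also overlapped Foxa3 was in FOXA1 liver mets (1.67) and both tumor lists.

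Fosl1 (chr19:5447547-5455946, plus strand) encodes FRA-1, which is tied to invasive growth in carcinoma cells. Its anchor had 31, 44, 24 and 32 loops, and in each of the lists it lay at or above the 95.2 percentile of genes with an anchor. Both liver mets counts were above the tumor count of the same factor. The ratios of list shares were 1.18 (0.726 to 1.93) with FOXA1 and 1.303 (0.744 to 2.31) with HNF4G, so counting error covers both. The locus is crowded, with 250 anchors within reach of Fosl1, of which 33.6% were joined, and 16 of its loops spanned 1000 kb or more.

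Of the 84 Fosl1 loops, 56 were in 1 list only, 24 of them in FOXA1 liver mets, and 6 were in all 4. The most distant of the 6 joined a cluster of starts 281 kb downstream that included Ehbp1l1, Fam89b and Sssca1, with values of 3.26, 3.02, 1.87 and 1.90. In both lines the FOXA1 value was above 2 and the HNF4G value below 2, where values are not equal evidence in different lists. A loop to Drap1, a transcriptional corepressor gene 22.3 kb upstream, had values of 1.73, 3.44, 0.990 and 1.36. The loop to Efemp2, an elastic fiber protein gene, had lower values of 0.123 to 1.44.

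The highest Fosl1 value, 6.62, belonged to the loop to Ccdc85b and Fibp, 10.8 kb downstream, in FOXA1 liver mets, where the other lists gave 1.61, 0.391 and 1.99. This partner lies under 20 kb away and was chosen after its value was seen, as were Kat5, a histone acetyltransferase gene, and the noncoding Malat1 gene. The loops to Kat5 (155 kb) and Malat1 (355 kb) were in 3 lists and missing from HNF4G tumor, with highest values of 3.82 and 3.28 in FOXA1 liver mets. A loop to the demethylase gene Kdm2a, 1113 kb upstream, was in FOXA1 liver mets only with a value of 3.93.

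Fosl2 (chr5:32135801-32157842, plus strand) encodes FRA-2, the remaining Fos protein. It had 18, 20, 15 and 19 loops, with all 4 lists between 15 and 20. Of its 33 loops 6 were in all 4 lists and 7 in 3, and only 13 were in 1 list. No Fosl2 loop was shorter than 20 kb. Between the 2 liver mets lists, 14 loops were shared, which were 70.0% (48.1 to 85.5) of the FOXA1 loops and 73.7% (51.2 to 88.2) of the HNF4G loops. Over loops with a promoter anchor of 5 kb or more these shares were 38.3% and 60.5%.

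The Fosl2 partners had the lowest share at starts. Upstream, 10 partners lay in introns of Babam2, a gene for a subunit of a BRCA1-associated complex. One of them, 119 kb upstream, was in all 4 lists with values of 1.14, 3.78, 1.38 and 1.43. Another, 312 kb upstream and chosen after its values were seen, was in 3 lists with 5.78 in HNF4G tumor. Farther out, 2 partners at and within Mrpl33, a mitochondrial ribosomal protein gene, were in all 4 lists at 538 and 533 kb. The nearer of them had values of 5.93, 1.84, 1.98 and 1.98, so only the FOXA1 tumor value reached 2. For the farther one only the HNF4G liver mets value reached 2, at 3.79. These were the only AP-1 loops of 500 to 1000 kb in all 4 lists, 2 of 62 (3.23%, 0.889 to 11.0), and they joined neighbouring anchors. With a promoter anchor of 5 kb or more, 1.02% of such loops were in all 4 lists, inside this interval.

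**Figure D5:**
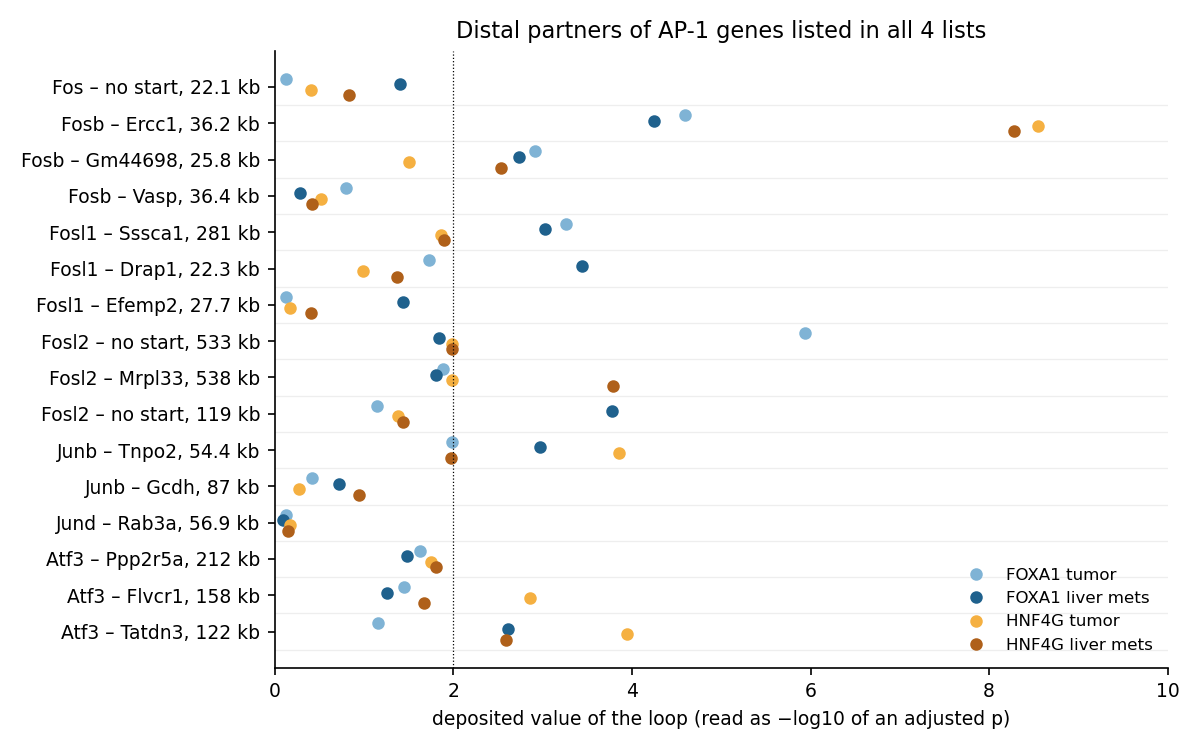
Deposited value (x axis, read as −log10 of an adjusted p) in each of the 4 lists (colors) for the partners of 20 kb or more that were in all 4 lists and were named by the fixed rule (y axis, gene, 1 gene at the partner and span). The dotted line marks a value of 2. The Fosb loop to Ercc1 stays above 4 in every list and the Jund loop to Rab3a stays below 0.2.

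Jun (chr4:95049034-95052222, minus strand) encodes the founding Jun subunit, which activates transcription with a Fos partner or as a dimer with itself. Its anchor had 5, 5, 2 and 3 loops, the lowest counts of the 8 genes in each list. The region was sparse, with 15 anchors within reach, and 12 of them (80.0%) were joined to Jun in some list, the 99.8 percentile of promoter anchors. None of the 12 loops was in all 4 lists, 0 were in 3, 3 were in 2 and 9 were in 1. None was shared between FOXA1 and HNF4G in the same line. With 2 to 5 loops in a list, the intervals of all 4 ratios of Jun were wide and included 1.

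The partners of Jun spanned at most 449 kb, to Plaa in FOXA1 liver mets. A partner 109 kb upstream in an exon of Junos was in both FOXA1 lists (0.968 and 0.269) and neither HNF4G list. The partner at Mysm1, a histone deubiquitinase gene 74.5 kb downstream, was in both HNF4G lists (0.171 and 0.146) and neither FOXA1 list. Each of these was the commonest value of its list and far below 2. The only Jun loop with a value of 2 or more joined Gm830, 436 kb upstream, in HNF4G liver mets (3.77), and FOXA1 liver mets held a loop to an intron of Gm830 at 422 kb (1.77).

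Junb (chr8:84974484-84978718, minus strand) encodes a subunit that often restrains JUN, and its promoter held the forkhead motif shown above. Its anchor was the widest at 11.9 kb and had 20, 29, 20 and 16 loops, highest in FOXA1 liver mets. Of the 5 loops in all 4 lists, 3 spanned under 20 kb. The loop to Hook2, a microtubule linker gene 8.80 kb upstream, had values of 4.65, 10.5, 7.33 and 5.21, and the loop to Prdx2 and Rnaseh2a, 11.7 kb downstream, had 3.85, 6.53, 2.47 and 0.696. Both were chosen after their values were seen, and both were highest in FOXA1 liver mets. Among distal partners, Tnpo2, a nuclear import receptor gene 54.4 kb upstream, had 1.99, 2.97, 3.85 and 1.97, and the metabolic enzyme gene Gcdh, 87.0 kb downstream, had 0.422, 0.723, 0.268 and 0.947.

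The highest value of any AP-1 loop was that between Junb and Nfix, a nuclear factor I gene 210 kb downstream, at 13.4 in FOXA1 liver mets. No other list held this loop, but each of them held Junb loops to other anchors in Nfix. Loops to Nfix starts at 181 and 273 kb were in both FOXA1 lists, with values of 1.35 to 1.75. An intron partner at 228 kb was in HNF4G tumor (1.78), a partner at 258 kb that overlapped Nfix was in HNF4G liver mets (1.88), and an intron partner at 236 kb was in FOXA1 liver mets (2.83). The loop to Gm26887, 781 kb downstream, had 8.96 in FOXA1 liver mets and 1.91 and 1.99 in FOXA1 tumor and HNF4G liver mets. A loop of 320 kb to Ier2, another immediate-early gene, was chosen after its values were seen and was in both FOXA1 lists (5.43 and 3.13). Neither HNF4G list held it, and HNF4G liver mets held a loop to an unannotated anchor at 324 kb (1.90). Of the Junb loops in HNF4G liver mets, 81.3% (57.0 to 93.4) were also in FOXA1 liver mets, against 35.0% (18.1 to 56.7) of the HNF4G tumor loops in FOXA1 tumor. Over loops with a promoter anchor of 5 kb or more these shares were 60.5% and 50.7%, inside both intervals.

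Jund (chr8:70698949-70700616, plus strand) encodes the most constantly expressed Jun protein. It had 16, 23, 20 and 18 loops, and its share of FOXA1 tumor was 0.586 (0.284 to 1.19) times its share of HNF4G tumor. Only 2 of its 45 loops were in all 4 lists. These joined Rab3a, a vesicle GTPase gene 56.9 kb downstream, at 0.0889 to 0.171, and Lsm4, a splicing factor gene 17.0 kb upstream, at 1.91, 2.42, 1.99 and 3.67. The FOXA1 lists of Jund shared 5 loops, 31.3% of those in tumor and 21.7% of those in liver mets. The HNF4G lists shared 10, 50% in tumor and 55.6% in liver mets. The intervals of these shares overlapped. Over loops with a promoter anchor of 5 kb or more, the shares were 55.6% and 45.3% for the FOXA1 lists and 44.9% and 48.1% for the HNF4G lists.

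A loop to the potassium channel gene Kcnn1, 167 kb downstream, was in HNF4G tumor only (2.82), and a loop to another Kcnn1 anchor at 161 kb was in both FOXA1 lists (1.499 and 1.26). The longest loop reached Eps15l1, an endocytosis gene 1724 kb downstream, in both HNF4G lists and neither FOXA1 list. Among partners chosen after their values were seen, the stress-induced cytokine gene Gdf15, 67.9 kb upstream, was in 3 lists at values of 0.0889 to 0.510, and a neighbouring Gdf15 anchor at 63.7 kb was in the remaining list, FOXA1 tumor (0.123).

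Atf3 (chr1:191170296-191218039, minus strand) encodes a stress-induced factor that can repress its targets as a dimer with itself. It had 32, 37, 26 and 16 loops, lowest in HNF4G liver mets, where the ratio of list shares to HNF4G tumor was 0.601 (0.301 to 1.16). Of its 61 loops 10 were in all 4 lists, the most of any member, and 36 were in 1 list, 17 of them in FOXA1 liver mets and 1 in HNF4G liver mets. Of the 16 loops in HNF4G liver mets, 12 (75%, 50.5 to 89.8) were also in HNF4G tumor and 12 in FOXA1 liver mets. Over loops with a promoter anchor of 5 kb or more these shares were 48.1% and 60.5%, below and inside the interval.

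The anchors of Atf3 differed. The main anchor had 24, 27, 24 and 13 loops, and the anchor near the outermost start had 8, 11, 3 and 3. For the latter, the ratio of list shares, FOXA1 over HNF4G, was 1.95 (0.469 to 11.4) in tumor. In liver mets it was 2.28 (0.602 to 12.7), so both intervals included 1. Loops of the outer anchor were short, with a median of 68.7 kb against 274 kb for the main one, and their partners were often joined to each other, in 42.9% (26.5 to 60.9) of pairs in FOXA1 tumor and 41.8% (29.7 to 55.0) in FOXA1 liver mets. Promoter anchors with 10 or more partners had medians of 24.6% and 26.7% in these lists, although the outer anchor had only 8 partners in FOXA1 tumor. Pairs share anchors, so these intervals are too narrow.

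From the main anchor, 3 distal partners at starts led the rule in all 4 lists. The loop to Ppp2r5a, a regulatory subunit gene of protein phosphatase 2A 212 kb upstream, had even values of 1.63, 1.49, 1.76 and 1.81. The loop to the membrane transporter gene Flvcr1, 158 kb downstream, had 1.45, 1.26, 2.86 and 1.67. The loop to Nsl1, a kinetochore gene, and Tatdn3, 122 kb downstream, had 1.16, 2.62, 3.94 and 2.59, highest in HNF4G tumor. Loops of 1 list only joined Nek2, a centrosomal kinase gene, in HNF4G tumor (3.92) and Dtl and Ints7 in FOXA1 tumor (3.41). Batf3, which encodes another AP-1 dimer partner and was chosen after its values were seen, was joined to the main anchor in HNF4G tumor only (0.687) and to the outer anchor in FOXA1 tumor only (1.12).

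The partners were searched for the same motifs in their central 1000 bp. The AP-1 motif TGANTCA was found in 104 of 312 distal partners (33.3%, 28.3 to 38.7), against 39.8% of all 30542 anchors. The motif was rarer at starts, and at equal kind of anchor the shares were close, with 26.8% of AP-1 partners at starts against 26.9% of all such anchors, and 45.8% (36.7 to 55.2) against 50.4% away from starts. By gene it ran from 5 of 40 partners of Junb (12.5%, 5.46 to 26.1) to 16 of 33 partners of Fosl2 (48.5%, 32.5 to 64.8) and 21 of 47 partners of Atf3 (44.7%). The forkhead motif was in 14.1% (10.7 to 18.4) of partners against 19.8% of all anchors. At starts it was in 12.2% (8.40 to 17.4) against 14.96%, and away from starts in 17.8% (11.7 to 26.1) against 23.8%, both inside the intervals. The HNF4 motif was in 2 of 312 (0.641%, 0.176 to 2.31), against 1.75% of all anchors, inside this interval.

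Among the 22 distal partners found in all 4 lists, 8 held the AP-1 motif (36.4%, 19.7 to 57.0). The share was 39.8% over all anchors and 32.4% over AP-1 partners in 1 list, both inside this interval. The genome sequence around the match in each is given with the motif in capitals, from the RefSeq GRCm38.p6 assembly (for Tnpo2, 1 of 2 matches in the central window), because these partners combine a loop in every list with a possible AP-1 element.
Fosb partner at Vasp (chr7:19270710-19270770, plus strand): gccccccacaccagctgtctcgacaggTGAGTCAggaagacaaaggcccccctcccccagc
Fosb partner at Gm44698 (chr7:19333052-19333112, plus strand): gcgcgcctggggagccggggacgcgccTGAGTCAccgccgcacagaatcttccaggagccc
Fosb partner at Ercc1 (chr7:19343725-19343785, plus strand): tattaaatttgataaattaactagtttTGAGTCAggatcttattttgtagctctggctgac
Fosl2 partner at an intron of Babam2 (chr5:32016094-32016154, plus strand): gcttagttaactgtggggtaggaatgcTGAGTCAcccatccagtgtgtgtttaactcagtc
Fosl2 partner at no annotated gene (chr5:32192207-32192267, plus strand): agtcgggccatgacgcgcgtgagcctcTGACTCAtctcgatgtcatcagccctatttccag
Junb partner at Tnpo2 (chr8:85035604-85035664, plus strand): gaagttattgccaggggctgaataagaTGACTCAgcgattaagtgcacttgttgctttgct
Atf3 partner at D730003I15Rik (chr1:191222161-191222206, plus strand): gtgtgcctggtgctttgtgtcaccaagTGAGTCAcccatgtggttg
Atf3 partner at an intron of Gm37168 (chr1:191277953-191278013, plus strand): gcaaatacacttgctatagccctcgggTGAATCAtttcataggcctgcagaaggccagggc

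The 4 loop numbers of each gene were compared with those of all other genes by the sum of absolute differences in log2(loops + 1) over the 4 lists. The nearest gene was Gm42545 for Fos (0.34), Ap2m1 for Fosb (0.20), Anxa13 for Fosl1 (0.13), Tnrc18 for Jund (0.13) and Ppp2r5d for Atf3 (0.21). For Junb it was Gm13073 (0.09), with 3 genes tied. Dsn1 had the same 4 counts as Jun, and AC125059.3 was 0.22 from Fosl2, each with 2 genes tied. Between 125 and 557 genes lay within a distance of 1 of each member, so these patterns were common.

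Other genes of the pathway were counted by the same rule of 1.5 fold. Over all genes tested, 11.9% were higher and 14.6% lower in liver mets with FOXA1, and 12.9% and 19% with HNF4G. Of 11 dimer partners such as Batf3 and the Maf genes, 9 had an anchor. For liver mets over tumor, 0 of 6 tested were past the fold with FOXA1, and 0 of 6 were higher and 1 lower (Batf3, 7 to 3 loops) with HNF4G. Of 16 genes of the MAP kinase route, 14 had an anchor, and 0 of 10 were past the fold with FOXA1 and 1 of 11 was lower (Map2k2, 24 to 14 loops) with HNF4G. Of 13 other immediate-early genes, 12 had an anchor. With FOXA1 0 of 12 were higher and 3 were lower in liver mets, Egr2 (9 to 7 loops), Ier2 (22 to 17) and Btg2 (21 to 16). With HNF4G 1 of 12 was higher (Klf6, 8 to 13) and 1 lower (Egr3, 11 to 2). Counts of 0 to 3 genes in a set are too few to set apart from the shares over all genes. The median ratio of list shares, liver mets over tumor, was 1.03 for the AP-1 genes with FOXA1, 1.04 for dimer partners, 1.02 for the MAP kinase route, 0.868 for immediate-early genes and 0.967 for all genes tested. With HNF4G it was 0.831, 1.07, 0.847, 1.08 and 0.977.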

How the data were processed

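Hi-ChIP of FOXA1 and HNF4G was measured in 8 samples, and groups were taken from the sample titles. Per the labels, reads were processed with HiC-Pro 3.1.0 on mm10 (GRCm38), and the study's methods name hichipper for the loops, with DpnII fragments and removal of duplicates. How the replicates of a group were joined and the minimum of paired reads are not given in the sources used here. The deposited value of a loop carries no name and was read as the −log10 of an adjusted p from its ties and range. The display score deposited by the authors follows from that value and was not used further. Read depth is unknown, so precision was limited to counting error of loops.

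Distinct loops were anchor pairs over the 4 lists, and anchors were tied to GENCODE M21 transcript starts within 2 kb. Span was the distance between anchor midpoints. Counts had exact Poisson, shares Wilson and ratios exact Clopper-Pearson intervals. Genes with 10 or more loops in a pair were called at 1.5 fold, and no test was made because each group had 1 list. Python 3.11.15, numpy 2.4.6, pandas 2.3.3 and scipy 1.17.1 were used, and counting was tested on simulated data. The members and lists were chosen with earlier results of these data known. Named partners were up to 3 of 20 kb or more in the most lists (ties by the highest lowest value), the longest loop, and up to 2 of 1 list only with the highest value. Named genes include the markers and pathway lists. Alternatives varied the start window, value minimum, span, overlap and member genes. Some partners that the naming rule selected are not reported here.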

Additional observations from a re-analysis of the deposited data

How the results depend on the processing

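Of 62 alternative values for the loops of all 8 genes, 48 lay within the interval of the reported value, 13 moved outside it and 1 turned its direction. The tumor ratio of FOXA1 over HNF4G, 0.779 as a ratio of list shares, was 1.06 as a ratio of plain counts, and the liver mets ratio moved from 0.894 to 1.44, both by construction, since the FOXA1 lists were longer. With values of 2 or more, 68 distinct loops were left, the HNF4G ratio of liver mets over tumor was 0.674 and the tumor ratio of FOXA1 over HNF4G was 0.547. The share of loops in all 4 lists was 3.69% at values of 1.3 or more, 2.94% at 2 or more, 6.88% at spans of 20 kb or more and 35.4% with anchors widened by 5 kb on each side. The share in 1 list only was 67.9%, 73.5% and, with widened anchors, 23.1%. The median span was 358 kb at values of 1.3 or more and 163 kb at 2 or more, and 205 to 274 kb with each gene left out in turn (lowest without Fosl1). How many lists hold a loop therefore depended on the overlap that made loops the same. For single genes, the liver mets ratio of Fosl2, FOXA1 over HNF4G, turned from 0.654 to 1.05 as plain counts. Of the other 214 values of single genes, 200 stayed within their interval and 14 moved. No paired analysis was possible because each loop list combines both replicates of its group. Read depth is unknown, and small loop numbers limit the ratios, as at Jun with 2 to 5 loops in a list.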

Other observations

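Partners of a gene were also asked for contacts among themselves. Among the partners of Fosl2, 31.1% (24.9 to 38.0) of pairs were joined in the FOXA1 liver mets list. The shares were 19.6% for FOXA1 tumor, 11.4% for HNF4G tumor and 12.3% for HNF4G liver mets. Promoter anchors with 10 or more partners had medians of 26.7%, 24.6%, 21.8% and 23.5% in these lists, in the same order. Among the partners of Jund, 31.4% (24.6 to 39.1) of pairs were joined in HNF4G liver mets and 16.8%, 16.6% and 13.3% in HNF4G tumor, FOXA1 liver mets and FOXA1 tumor. The partners of Junb were joined in 7.89% to 19.0% of pairs, below the median of promoter anchors in each of the 4 lists. Pairs share anchors and are not independent, and no test was made.

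The start of Hnf4g, the gene of the second factor, had 2 loops in FOXA1 tumor, 1 in HNF4G tumor and 0 in both liver mets lists, whereas the start of Foxa1 had 8, 11, 6 and 5 loops in the FOXA1 tumor, FOXA1 liver mets, HNF4G tumor and HNF4G liver mets lists. None of these differences was tested.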
